A study of Danio rerio with 8 samples.

Results

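Cluster 5 (c5) was a group of 72 cells of zebrafish skin, 1 of 5 clusters into which the authors divided their cells by expression. The 72 cells were taken by the authors' own cluster assignment and made up 11.1% of all cells (exact 95% interval 8.82 to 13.8%). The study drew these cells mostly from stripes by its own account. The deposited values were pooled over skin regions, so the origin of a c5 cell was not examined here. The other clusters held 122 cells (c3), 194 cells (c1), 176 cells (c2) and 82 cells (c4).

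The cells came from flank dermis of untreated adult zebrafish that carried pnp4a:palmmCherry and pnp4a:nlsEos, a membrane and a nuclear reporter that share the pnp4a promoter. Stripe (dark) and interstripe (light) skin was dissected and dissociated separately with an enzyme mix, and cells bright for both reporters were sorted one by one into plates. The labels give 4 dark and 4 light libraries, 8 in all. By the study's methods, skin was processed in more than 1 cycle, and in each cycle skin of different fish was pooled before sorting. No value in the deposited table belongs to 1 fish, 1 cycle or 1 plate. There is therefore 1 value per gene and cluster, cells are not replicates of a condition, and no test was made.

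Iridophores are neural crest derived pigment cells that reflect light from stacks of guanine crystals, and they line both stripes and interstripes of the adult fish. Genes of the Fos and Jun families encode subunits of the transcription factor AP-1, and like other immediate early genes they can be switched on within a short time of a stimulus without new protein being made. Socs genes encode feedback inhibitors of cytokine signalling through Jak kinases and Stat factors.

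Levels are given as the natural log of the corrected molecule count plus 1, averaged over all cells of a cluster with undetected cells at 0, with the SD over cells. A difference is the c5 mean minus the mean of the other cluster. Shares of cells carry exact 95% Clopper-Pearson intervals, and these cover counting error only. Counts of genes used the 3063 of 19914 features that were found in at least 5% of all cells. A c5 cell had 815 genes detected on average, against 846 in c3, 789 in c1, 740 in c2 and 1395 in c4. The cells of c4 therefore showed many more genes each, and a share of cells with a gene is not comparable between c5 and c4. The part of this in the values of c4 was not tested.

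The 5 genes that lead c5 were fosab, fosb, phlda2, jdp2b and socs3a. They helped to form the cluster, so their values describe it and are no evidence of their own. The AP-1 subunit gene fosab was found in 69 of 72 c5 cells (95.8%, interval 88.3 to 99.1%), at a mean of 5.23 ± 1.78 (SD, n = 72 cells). Its mean was 3.01 ± 2.08 in c3, 2.83 ± 2.12 in c1, 2.24 ± 1.54 in c2 and 2.27 ± 1.15 in c4. In c3 and c1 it was found in 79.5% and 83.0% of cells, so c5 stood apart more by how much of it each expressing cell held. In the cells that expressed it, the geometric mean of the corrected count plus 1 was 233 in c5 and 44.0 in c3.

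For fosb, a close relative, both share and level differed. It was found in 77.8% of c5 cells (66.4 to 86.7%), 45.1% of c3 cells (36.1 to 54.4%) and 29.9% of c1 cells (23.6 to 36.9%). The mean was 2.97 ± 1.97 in c5, 1.13 ± 1.56 in c3, 0.79 ± 1.41 in c1, 0.67 ± 1.08 in c2 and 1.14 ± 1.12 in c4. The intervals of the c5 share did not overlap those of c3 or c1, which is no test, because fosb helped to form the cluster and cells are not replicates.

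The gene jdp2b encodes a Jun dimerization protein, which in mammals can hold AP-1 sites in a repressed state. It was detected in 75.0% of c5 cells (63.4 to 84.5%), 44.3% of c3 cells (35.3 to 53.5%) and 42.8% of c1 cells (35.7 to 50.1%), and averaged 2.74 ± 1.98 in c5, 1.23 ± 1.70 in c3 and 1.13 ± 1.61 in c1. The feedback inhibitor socs3a was found in 66.7% of c5 cells (54.6 to 77.3%), 32% of c3 cells (23.8 to 41.0%) and 37.6% of c1 cells (30.8 to 44.9%), at means of 2.41 ± 2.03 in c5, 0.84 ± 1.42 in c3 and 1.06 ± 1.60 in c1. Each of these genes was thus undetected in 18 to 24 of the 72 c5 cells.

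The gene phlda2, which encodes a small protein with a pleckstrin homology domain, showed the largest difference from c3 among all 3063 genes. Its mean was 3.27 ± 2.22 in c5, 0.78 ± 1.43 in c3, 1.64 ± 2.01 in c1, 1.09 ± 1.40 in c2 and 1.48 ± 1.04 in c4. It was found in 75.0% of c5 cells (63.4 to 84.5%), 32% of c3 cells (23.8 to 41.0%) and 51.5% of c1 cells (44.3 to 58.8%). Unlike fosab and fosb, phlda2 had a c1 mean between those of c5 and c3.

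**Figure D1:**
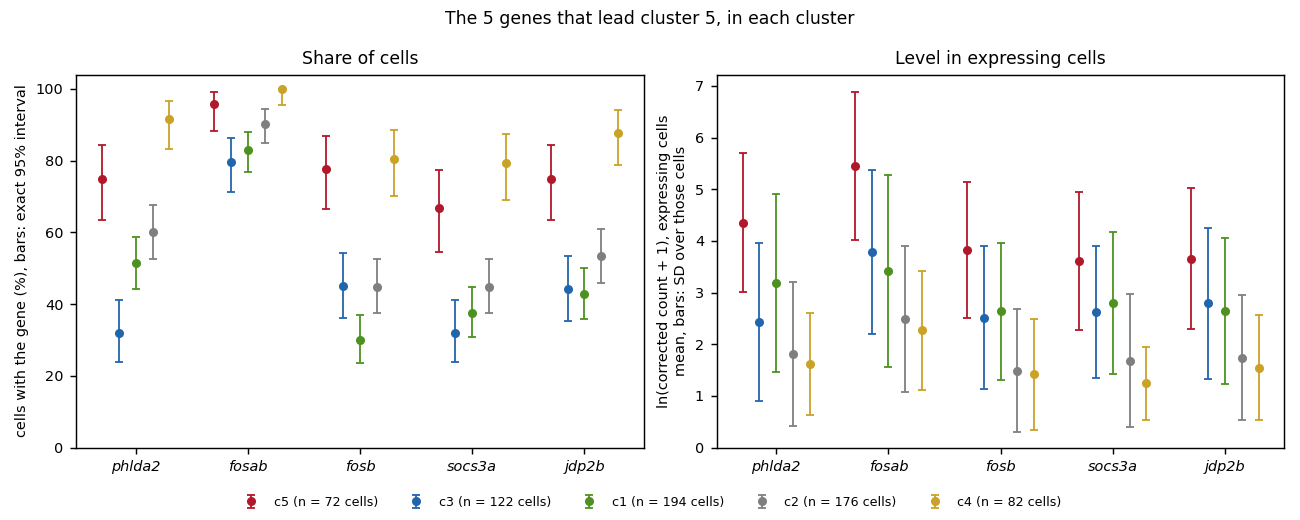
Share of cells with each of the 5 leading genes (left, percent, bars are exact 95% intervals) and their level in the cells that expressed them (right, natural log of the corrected count plus 1, bars are SD over those cells), by cluster. The c5 points lie above those of c3 and c1 in both panels, and c4 has high shares with low levels, as for fosab with a mean of 2.27.

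Counted over all genes, c5 differed from c3 by at least 1 in few of them. At least 1 higher in c5 than in c3 were 19 genes (0.62% of 3063), and 12 genes (0.392%) were at least 1 lower. Against c1, 10 genes (0.326%) were at least 1 higher in c5 and 0 (0.0%) were at least 1 lower. The median difference over all genes was 0.0027 against c3 and 0.0049 against c1, so the typical gene was not shifted. The median does not speak for the sum of the means. Over all 19914 features, that sum was 1731 in c5, 1696 in c3, 1612 in c1, 1256 in c2 and 2174 in c4. Across the 3063 genes the c5 means correlated with those of c1 at Pearson's r = 0.95 (Spearman's rho = 0.82) and with those of c3 at r = 0.91 (rho = 0.73), followed by c2 (r = 0.86, rho = 0.56) and c4 (r = 0.77, rho = 0.56). These correlations are across genes, which share libraries and are not independent, and describe c5 as closest to c1.

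**Figure D2:**
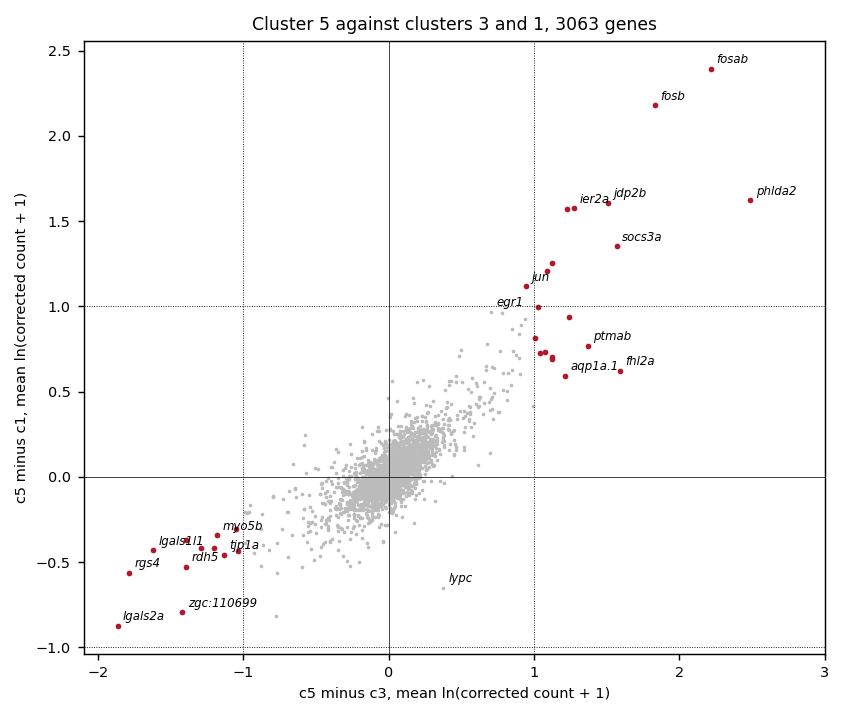
Difference in mean of c5 minus c3 (x) and of c5 minus c1 (y), natural log of the corrected count plus 1, for 3063 genes, with dotted lines at 1 and -1 and genes past a line in red. The AP-1 gene fosab lies far out on both axes, while rgs4 and lgals1l1 lie below -1 on the x axis only; both axes use the same c5 values.

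In all, 40 genes (1.31% of 3063) had a c5 mean at least 0.5 above that of every other cluster. They were found in 22.2 to 97.2% of c5 cells, with a median of 66.7%. All 40 were detected in a larger share of c5 cells than of c3 cells and of c1 cells, by a median of 20.7 and 20.0 percentage points, against medians of 0.068 and 0.26 points over all 3063 genes. The level in expressing cells was higher in c5 than in c3 for all 40 and higher than in c1 for 38. The 40 were chosen by a mean that combines share and level, so these directions follow largely from that choice. Against c4, whose cells had more genes detected each, 1 of the 40 genes was found in a larger share of c5 cells, and all 40 had a higher level in the c5 cells that expressed them. The typical gene had the same directions. Over all 3063 genes the median difference of c5 from c4 was -11.0 points in share and 0.92 in level.

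**Figure D3:**
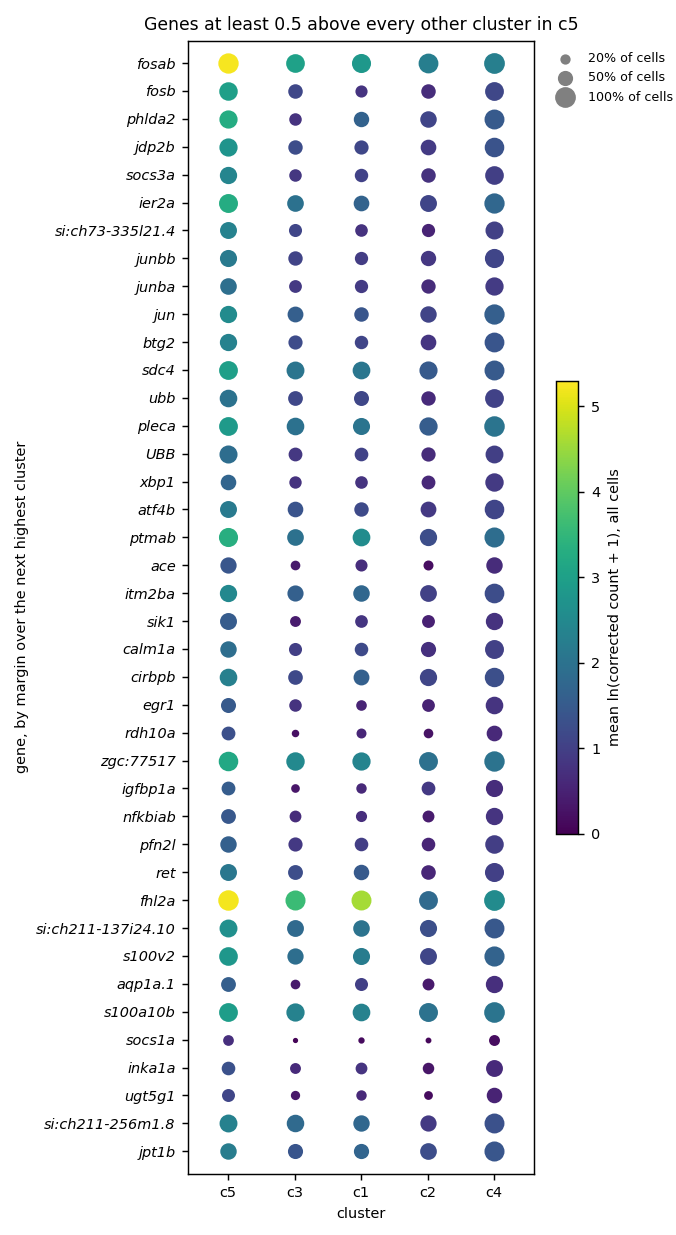
Mean (colour, natural log of the corrected count plus 1 over all cells) and share of cells (dot size) of the 40 genes at least 0.5 above every other cluster in c5, ordered by margin, with c5 at the left. The brightest dots are fosab at 5.23 and fhl2a at 5.21 in c5, and c4 has large dark dots.

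Fos and Jun genes made up 6 of the 40. Of 16 measured members of that list, 8 passed the filter, and 5 of the 8 were at least 1 higher in c5 than in c3 (background 0.62%) and 5 at least 1 higher than in c1 (background 0.326%). The median difference over the 8 was 1.06 against c3 and 1.16 against c1, and with all 16 measured members it was 0.066 and 0.11, since the others were rarely detected. The Jun genes jun, junbb and junba encode the partners of Fos proteins. Their means were 2.53 ± 2.15 (jun), 2.15 ± 1.88 (junbb) and 1.91 ± 1.81 (junba) in c5, against 1.59 ± 1.73, 1.07 ± 1.42 and 0.88 ± 1.46 in c3 and 1.41 ± 1.84, 0.95 ± 1.45 and 0.91 ± 1.49 in c1, in the same order of genes. All 8 had a higher mean in c5 than in c3 and in c1, by unequal amounts. The smallest differences were those of jund, with a mean of 0.36 in c5, 0.30 in c3 and 0.27 in c1, and of fosl1a, with 0.75 in c5, 0.37 in c3 and 0.25 in c1.

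Other early transcription factors followed in part. Of 33 measured, 12 passed the filter, with a median difference of 0.20 against c3 and 0.34 against c1. At least 1 higher in c5 than in c3 and in c1 was 1 of the 12 (background 0.62% and 0.326%). That gene was ier2a, an immediate early response gene, at 3.25 ± 1.90 in c5, 1.98 ± 1.89 in c3 and 1.68 ± 1.90 in c1. The zinc finger factor gene egr1 had means of 1.49 ± 1.78 in c5, 0.78 ± 1.35 in c3 and 0.52 ± 1.16 in c1, and was found in 48.6% of c5 cells (36.7 to 60.7%). By contrast id1, which encodes an inhibitor of DNA binding by other factors, averaged 1.50 in c5 cells against 1.57 in c3 cells. The lowest difference among the 12 was -0.19 against c3 and -0.02 against c1.

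Genes for early feedback regulators were higher in c5 in several cases. Of 33 measured, 16 passed the filter, with a median difference of 0.33 against c3 and 0.26 against c1. At least 1 higher than in c3 were 2 of the 16 (background 0.62%), btg2 and sik1. The antiproliferative gene btg2 had a mean of 2.33 ± 1.90 in c5, 1.21 ± 1.70 in c3 and 1.08 ± 1.64 in c1. The kinase gene sik1, which in mammals is induced by cAMP, had 1.53 ± 1.54 in c5, 0.40 ± 0.95 in c3 and 0.82 ± 1.35 in c1. A separate list for cAMP and adrenergic signalling, without sik1, had 62 measured genes, of which 14 passed the filter. Their median difference was 0.01 against c3 and 0.01 against c1. Of the 14, 0 were at least 1 higher in c5 than in c3 or in c1 (background 0.62% and 0.326%). The gene nfkbiab, for an inhibitor of NF-kB, had 1.44 ± 1.73 in c5, 0.68 ± 1.31 in c3 and 0.70 ± 1.39 in c1, whereas the growth arrest gene gadd45ba had 0.70 in c5 and 1.16 in c3. Against c1, the lowest difference among the 16 was -0.07.

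Together with the Fos and Jun genes, 36 early genes of 82 measured passed the filter, and 31 of the 36 had a higher mean in c5 than in c3 and 32 a higher mean than in c1. Over all 3063 genes, 50.8% were higher in c5 than in c3 and 51.6% higher than in c1. The c5 mean was at least 0.5 above every other cluster for 11 of the 36, against 1.31% of all genes. These genes helped to form the cluster and give no test of it. Stripe and interstripe skin was dissociated and sorted separately, and skin was processed in more than 1 cycle. The part of this handling in the early genes was not tested.

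Among genes of Jak-Stat signalling, the largest differences from c3 were in inhibitors. Of 28 measured, 10 passed the filter, with a median difference of 0.18 against c3 and 0.13 against c1. Beside socs3a, the inhibitor gene socs1a was found in 16 of 72 c5 cells (22.2%, interval 13.3 to 33.6%), against 4 of 122 c3 cells (3.28%, 0.90 to 8.18%) and 11 of 194 c1 cells (5.67%, 2.86 to 9.92%). Its mean was 0.71 ± 1.39 in c5, 0.06 ± 0.35 in c3 and 0.16 ± 0.69 in c1. The kinase gene jak1 had a mean of 0.28 in c5, 0.11 in c3 and 0.15 in c1, and the factor gene stat1a 0.45 in c5, 0.26 in c3 and 0.37 in c1. Against c1 the order differed, since mcl1a, also on this list, was 0.71 higher in c5 and socs1a 0.56 higher. Against c3, mcl1a was 0.48 higher in c5.

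Stress genes divided. Of 38 measured genes for heat shock and stress, 19 passed the filter, with a median difference of 0.19 against c3 and 0.06 against c1. Among the 40 were 3 of the 19 (background 1.31%). These were ubb, which encodes ubiquitin, at 2.0 ± 1.64 in c5, 1.15 ± 1.47 in c3 and 1.13 ± 1.43 in c1, and xbp1, a factor of the unfolded protein response, at 1.71 ± 1.77 in c5, 0.77 ± 1.34 in c3 and 0.79 ± 1.35 in c1. The third was atf4b, a factor of the integrated stress response, at 2.16 ± 1.81 in c5, 1.38 ± 1.53 in c3 and 1.19 ± 1.58 in c1. Ubiquitin genes are near-identical, and reads may have been split between ubb, UBB and ubc. The chaperone genes named here were slightly lower in c5 than in c3: hsp90ab1 averaged 2.86 in c5 cells against 2.99 in c3 cells, and hspa8 averaged 1.69 against 1.84. The gene hspa9 had the lowest difference of the 19, at -0.28 against c3 and -0.25 against c1.

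**Figure D4:**
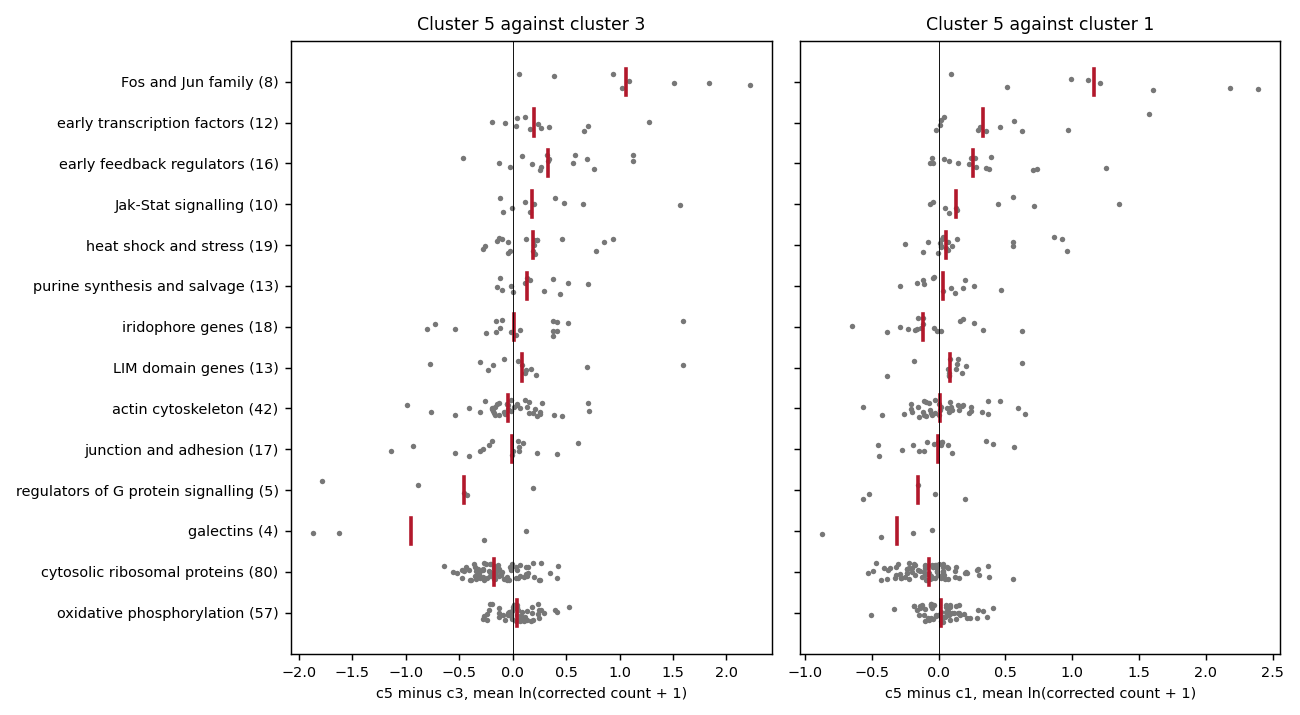
Difference in mean of c5 minus c3 (left) and c5 minus c1 (right), natural log of the corrected count plus 1, for the members of 14 gene lists that passed the filter (number of members in brackets), with the median as a red bar. The Fos and Jun family has medians of 1.06 and 1.16, and galectins lie lowest with -0.95 and -0.31.

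The 19 genes that were at least 1 higher in c5 than in c3 did not share 1 pattern in c1. For 11 of them the c1 mean lay less than 0.25 of the way from c3 to c5 or on the far side of c3, and for the other 8 it lay further toward c5. The first kind included fosab, fosb, jdp2b, ier2a, btg2, junbb, junba and socs3a, for which c1 and c3 were far closer to each other than to c5. The second kind included phlda2, sik1, ptmab, fhl2a and aqp1a.1. The LIM protein gene fhl2a had means of 5.21 ± 1.54 in c5, 4.58 ± 1.93 in c1 and 3.62 ± 1.76 in c3, and the water channel gene aqp1a.1 had 1.59 ± 1.88 in c5, 1.00 ± 1.62 in c1 and 0.38 ± 0.99 in c3.

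Further genes of this second kind encode enzymes. The peptidase gene ace, which in mammals encodes the angiotensin-converting enzyme, was found in 58.3% of c5 cells (46.1 to 69.8%), 29.4% of c1 cells (23.1 to 36.3%) and 17.2% of c3 cells (11.0 to 25.1%). A retinol dehydrogenase gene, rdh10a, whose product carries out the first step of retinoic acid synthesis, had means of 1.29 ± 1.75 in c5, 0.56 ± 1.26 in c1 and 0.22 ± 0.86 in c3. The related gene rdh5 ran the other way, with a mean of 0.05 in c5, 0.58 in c1 and 1.45 in c3. The ace difference came mainly from the share of cells, because the level in expressing cells was 2.43 in c5, 2.35 in c1 and 2.18 in c3.

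For the 12 genes that were at least 1 lower in c5 than in c3, c1 lay between both clusters in every case, at 0.44 to 0.74 of the way from c3 to c5 with a median of 0.67. None of the 12 was at least 1 lower in c5 than in c1.

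**Figure D5:**
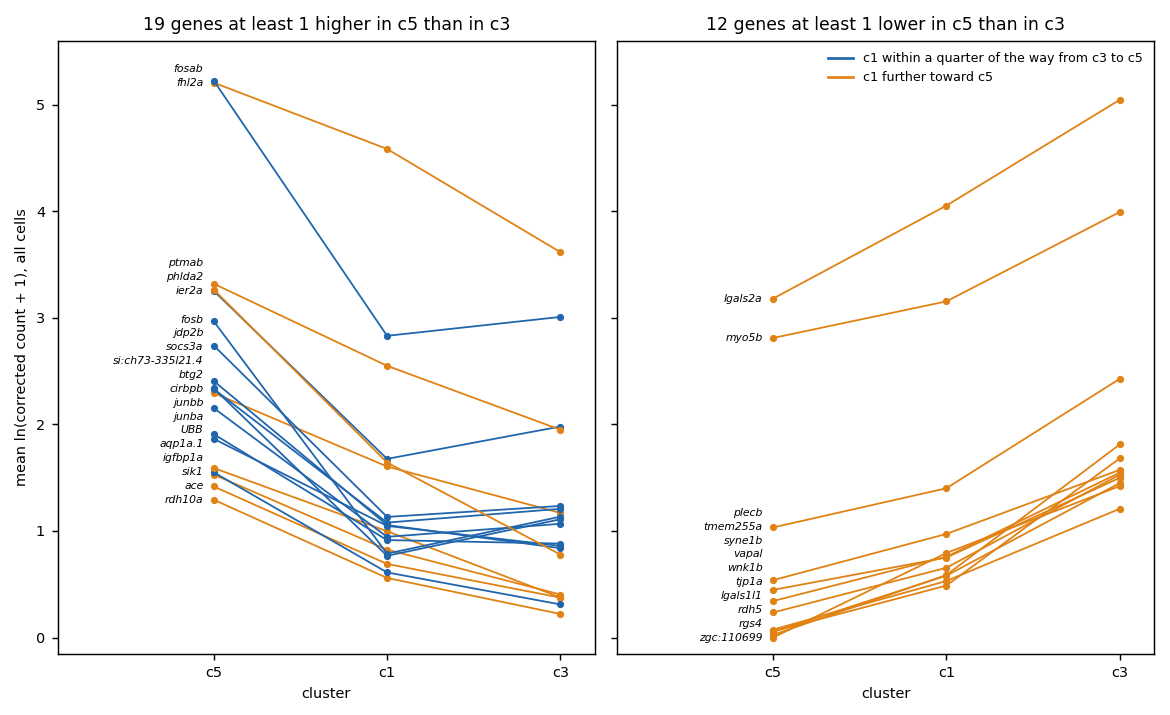
Mean (natural log of the corrected count plus 1, all cells) in c5, c1 and c3 of the 19 genes at least 1 higher (left) and the 12 genes at least 1 lower (right) in c5 than in c3. Blue lines, 11 genes on the left, have a c1 mean less than 0.25 of the way from c3 to c5; on the right all 12 lines are graded.

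Some genes of G protein regulation were nearly undetected in c5. Regulators of G protein signalling (Rgs) speed up the switching off of G proteins downstream of hormone receptors. Of 21 measured, 5 passed the filter, with a median difference of -0.45 against c3 and -0.15 against c1. The gene rgs4 was found in 2 of 72 c5 cells (2.78%, interval 0.34 to 9.68%), against 65 of 122 c3 cells (53.3%, 44.0 to 62.4%) and 33 of 194 c1 cells (17.0%, 12 to 23.1%). The gene rgs16 was found in 0 of 72 c5 cells (exact interval up to 4.99%, and 3 cells would be a share of 4.17%), against 28.7% of c3 cells (20.9 to 37.6%) and 16.5% of c1 cells (11.6 to 22.5%). Not every Rgs gene was lower in c5, since rgs5b averaged 0.38 in c5, 0.19 in c3 and 0.19 in c1.

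Of the galectins, which bind sugar chains on cell surfaces, 2 were at least 1 lower in c5 than in c3 (background 0.392%). The gene lgals2a had means of 3.18 ± 1.99 in c5, 5.05 ± 1.94 in c3 and 4.05 ± 2.05 in c1. The gene lgals1l1 was found in 3 of 72 c5 cells (4.17%, interval 0.87 to 11.7%), 62 of 122 c3 cells (50.8%, 41.6 to 60.0%) and 34 of 194 c1 cells (17.5%, 12.5 to 23.6%). Of 8 measured galectins, 4 passed the filter, with a median difference of -0.95 against c3 and -0.31 against c1, while over all 8 it was 0.0068 against c3.

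Other genes nearly missing from c5 had varied roles. The retinol dehydrogenase gene rdh5 was found in 2 of 72 c5 cells (2.78%, interval 0.34 to 9.68%), against 49.2% of c3 cells (40.0 to 58.4%) and 19.6% of c1 cells (14.2 to 25.9%). The gene tjp1a, for the tight junction scaffold ZO-1, was found in 2 of 72 c5 cells (2.78%), against 44.3% of c3 cells (35.3 to 53.5%) and 19.6% of c1 cells (14.2 to 25.9%). The feature zgc:110699 was found in 0 of 72 c5 cells (exact interval up to 4.99%), against 45.1% of c3 cells (36.1 to 54.4%) and 23.7% of c1 cells. All 3 also had lower shares in c5 than in c2, whose cells had fewer genes detected each.

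Genes of the cytoskeleton gave values in both directions. The plectin genes, which encode linkers of intermediate filaments, differed from each other: pleca had means of 2.87 ± 1.85 in c5, 1.97 ± 1.77 in c3 and 2.03 ± 1.91 in c1, while plecb had 1.03 ± 1.62 in c5, 2.43 ± 1.98 in c3 and 1.40 ± 1.80 in c1. The motor gene myo5b had 2.81 ± 2.19 in c5, 3.99 ± 1.66 in c3 and 3.15 ± 2.0 in c1. Of 63 measured actin cytoskeleton genes, 42 passed the filter, with a median difference of -0.04 against c3 and 0.01 against c1. For 17 of 40 junction and adhesion genes that passed, the median was -0.01 against c3, and jam3b, an adhesion molecule gene, had 0.21 in c5, 1.14 in c3 and 0.66 in c1. Against c3, 3 of the 17 were at least 0.5 lower (background 2.12%) and 1 at least 0.5 higher (background 2.87%). The latter was cx43, 0.61 higher in c5 than in c3 and 0.41 higher than in c1. The gene ctnnb1 was 0.41 higher than in c3 and 0.56 higher than in c1.

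A single feature, CT027638.1, had a c5 mean at least 0.5 below every other cluster (0.0326% of 3063). Its mean was 1.05 ± 1.46 in c5, 1.82 ± 2.13 in c3, 1.86 ± 1.92 in c1, 1.92 ± 2.04 in c2 and 2.04 ± 1.54 in c4.

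Marker genes of iridophores describe c5 and are no independent check of its label. The cells were sorted by pnp4a reporters, and the study named its iridophore clusters by high levels of such markers. The reporter gene pnp4a, a purine nucleoside phosphorylase, was found in 57 of 72 c5 cells, with means of 2.75 in c5, 2.86 in c3, 2.91 in c1, 1.55 in c2 and 1.87 in c4. The highest iridophore genes were lypc (5.75 in c5, 5.38 in c3, 6.40 in c1) and apoda.1 (5.41 in c5, 5.00 in c3, 5.25 in c1), and apoda.1 was found in all 72 c5 cells. Of 26 measured iridophore genes, 18 passed the filter, with a median difference of 0.01 against c3 and -0.12 against c1. At least 0.5 lower in c5 than in c3 were 3 of the 18 (2.12% of all genes), namely gpnmb at 3.15 in c5 and 3.70 in c3, the homeobox gene alx4a at 1.45 in c5 and 2.17 in c3, and the kinase anchor gene akap12a at 5.24 in c5 and 6.04 in c3. At least 0.5 higher in c5 than in c3 were 2 of the 18 (2.87% of all genes). The larger of these differences was that of fhl2a, at 5.21 in c5 and 3.62 in c3. The summed mean of the 26 was 38.1 in c5, 37.0 in c3, 39.1 in c1, 22.1 in c2 and 29.1 in c4. These sums include fhl2a, whose c5 mean was at least 0.5 above every other cluster. Its difference of 1.59 from c3 exceeds that between the summed means of c5 and c3. The higher sum in c5 than in c3 therefore rests on this gene. Among purine synthesis and salvage genes, 13 of 37 passed with a median difference of 0.13 against c3, and mthfd1l had 0.93 in c5, 0.22 in c3 and 0.46 in c1.

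Markers of xanthophores and of immune, endothelial, red blood and muscle cells had low summed means in c5. The summed means of melanophore, progenitor and Schwann, and keratinocyte genes were higher in c5 than in any other cluster. The low summed means were 1.1 over 15 xanthophore genes, 0.51 over 17 immune genes, 0.55 over 21 endothelial genes, 0.04 over 6 erythrocyte genes and 0.33 over 15 muscle genes in c5, against 1.41, 0.43, 0.38, 0.09 and 0.39 in c3. In c1 they were 1.30, 0.43, 0.44, 0.06 and 0.40, in the same order. The immune and endothelial sums, though small, were thus higher in c5 than in c3 and c1, and lower than in c2 and c4. For 22 dermal fibroblast genes the summed mean was 2.65 in c5, 2.71 in c3, 2.32 in c1, 3.39 in c2 and 5.11 in c4. The xanthophore gene aox5 was rare in every cluster. It was found in 4.10% of c3 cells, 5.15% of c1 cells, 7.95% of c2 cells and 4.88% of c4 cells. In c5 it was found in 0 of 72 cells (exact interval up to 4.99%). These upper limits are for cells with a detected molecule, not for cells that express the gene. The summed mean of 16 melanophore genes was 3.61 in c5, 2.54 in c3, 3.15 in c1, 2.26 in c2 and 2.84 in c4, most of it from trpm1b at 2.22 in c5, 1.60 in c3 and 2.15 in c1. Only 2 of the 16 passed the filter, trpm1b and rab32a. Their differences were 0.62 and 0.60 against c3, and 0.07 and 0.43 against c1, so rab32a differed more from c1. The summed mean of 16 genes of progenitors and Schwann cells was 2.73 in c5, 2.03 in c3, 1.86 in c1, 1.65 in c2 and 2.61 in c4, and the myelin gene mpz was found in 12 of 72 c5 cells, with means of 0.42 in c5, 0.02 in c3 and 0.14 in c1. The summed mean of 22 keratinocyte genes was 7.34 in c5, 6.56 in c3, 5.66 in c1, 6.10 in c2 and 6.80 in c4. Of the 22, 6 passed the filter, with a median difference of 0.02 against c3 and 0.27 against c1. The keratin gene krt18 had 1.41 in c5, 0.56 in c3 and 0.67 in c1, and krt8 had 2.92 in c5, 2.90 in c3 and 2.36 in c1. The krt18 difference of 0.85 from c3 exceeds that between the summed means of c5 and c3, so the higher sum than in c3 rests on this gene. Against c2 and c4, krt8 was higher in c5 by 0.66 and 0.73, krt18 by 0.57 and 0.23, and anxa1a by 0.74 and 0.77. Other keratinocyte genes went the other way. The differences from c2 and c4 were -0.07 and -0.18 for krt4, -0.28 and -0.16 for krt91, and -0.05 and -0.25 for dspa. The part of these cell type genes in the differences above was not tested.

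Housekeeping groups had small median differences. For cytosolic ribosomal proteins, 80 of 81 passed the filter, with a median difference of -0.17 against c3 and -0.07 against c1. For oxidative phosphorylation 57 of 85 passed, with medians of 0.04 and 0.02, and for the vacuolar ATPase 10 of 25 passed, with medians of -0.01 and 0.02.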

How the data were processed

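Reads were demultiplexed with bcl2fastq 2.20 and, per the submitters' processing notes, aligned with STAR to GRCz11. By the study's methods, the authors trimmed adapters, counted molecules per gene by their molecular identifiers, kept cells within set ranges of features and counts, removed mitochondrial features and spike-ins, normalized the counts with SCTransform and clustered the cells. The deposited table gives, for 19914 features and 5 clusters, cell numbers, the percent of cells in which it was detected and, over the cells that had it, mean and SD on a natural log scale after adding 1 to corrected counts. A second table from the authors holds their own comparison of c5 with c3 (fold changes, p-values and fractions of cells) and was not used.

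Means and SDs over all cells were rebuilt with Python 3.11.15, pandas and NumPy, and exact intervals with SciPy. Features found in under 5% of all cells were left out of counts. The depth per cell was not used here. Differences of 1 against a single cluster and of 0.5 against every other cluster were counted; no test was made. On simulated cells for c5 against c3 with 3063 genes, 178 of 200 genes planted with an expected difference of 2 were found (89.0%). Of genes in 5 to 10% of cells 84 of 103 were found, and of those in 10 to 20% 54 of 57. The difference was planted by raising the level in expressing cells only, with the share of cells kept. For genes in under 20% of cells this took levels far above those in the data. These rates therefore do not estimate recovery at real levels, and rare genes may be missed more often.

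Genes named are mainly the 5 leading genes, the 15 furthest above and 10 furthest below every other cluster, the 10 largest differences each way, the highest means, and up to 6 members of each of 33 gene lists. Outside these rules, jund, fosl1a, id1, gadd45ba, hsp90ab1, hspa8 and the reporter gene pnp4a were also named. Members and lists were chosen with earlier results of these data known. Symbols occur more than once for 113 features, and lists use the row found in most cells. Of the identifiers, 18929 were in the reference names. Promoter sequences were not analysed here.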

Additional observations from a re-analysis of the deposited data

Results flagged for a closer look

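One feature carries the name of the mitochondrial genome, although the study's methods state that mitochondrial features were removed. It had the highest mean of any feature in c5, 8.10 ± 0.39 (SD over 72 cells), and was found in all 72 cells. Its mean was 8.14 ± 0.42 in c3, 8.16 ± 0.46 in c1, 8.48 ± 0.48 in c2 and 6.66 ± 1.71 in c4, so c5, c3 and c1 lay within 1 SD of each other. In all, 8 features carry this name. Of these, 2 were found in at least 5% of all cells and stayed among the 3063 genes counted, while the comparisons above name none of them.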

How the results depend on the processing

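Filters at 10% and 25% of cells or none kept each count of genes within 1.5 times its value. With a difference of 0.5, chosen after the values were seen, 88 genes were higher (2.87%) and 65 lower (2.12%) in c5 than in c3, and 61 were higher (1.99%) and 11 lower (0.359%) than in c1. Genes at least 0.5 below every other cluster numbered 8 against c1 and c3 only and 5 without c2, because fewer clusters had to be passed. Measured by expressing cells only or by percent of cells, no difference of at least 1 changed its sign, over 40 and 41 values. Of the list medians, 5 moved by more than the SD among members with the 25% filter and 4 without a filter, among them the Fos and Jun family, at 0.066 against c3 and 0.11 against c1. The galectin median against c3 was 0.0068 without a filter, which adds members found in few cells. No paired analysis was possible because the values are pooled over libraries, and for the same reason no library could be left out. Promoter motifs were not run. With 72 cells, the exact interval of a gene detected in none reaches 4.99%, which limits cells with a detected molecule and not cells that express the gene.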
